A study of Mus musculus with 28 samples.

Results

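The comparison described here was that of SIRT6-tg with wild type (WT) liver in female mice, across all genes expressed there. Its members were the 7 female SIRT6-tg and the 7 female WT libraries, 14 of the 28 libraries of the series, and the 21432 of 49585 annotated features whose mean normalized count over these 14 libraries was 0.5 or more. The other 14 libraries, 7 WT and 7 SIRT6-tg males, were used only where a female value was set beside a male one. All mice were C57BL/6JOlaHsd, aged 5 to 7 months, fed standard chow, and killed after a short fast. SIRT6-tg mice carried a transgene that overexpresses Sirt6 and came from 1 transgenic line, so an effect of that line's insertion site cannot be told apart from an effect of SIRT6. WT mice were their littermates and carried no transgene. The promoter that drives the transgene was not named in the sources used here.

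SIRT6 is a nuclear enzyme that depends on NAD and removes acetyl and longer acyl groups from histones and other proteins. At chromatin it removes acetyl groups from histone H3 and represses transcription at many promoters, and mice that lack it die young with low blood glucose. In liver it is known for roles in glucose production, fat oxidation, and inflammation. Female and male mouse livers also differ in the expression of many genes, a difference set largely by the pattern of growth hormone secretion, which acts through the transcription factor STAT5. HNF6 and CUX2 are other liver factors of this program.

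*Sirt6* (chromosome 10, 81621785 to 81627797, minus strand, GRCm38, the same build as mm10) was measured first, since it checks the genotype labels. Its normalized counts, which are read counts scaled for library depth, were 45.6 at the lowest, 63.4 at the median, and 160 at the highest in WT females. In SIRT6-tg females they were 413, 749, and 1273. All 7 SIRT6-tg mice lay above all 7 WT mice, so no female library went against its label, and the WT mouse at 160 stood well above the other 6. *Sirt6* rose by 3.39 on the log2 scale (SE 0.32, edgeR adjusted p = 1.98e-04), and the ratio of the medians was 11.8. Among SIRT6-tg females the highest level was 3.08 times the lowest. In males the ratio of the medians was 91.8 and the log2 change was 6.59 (SE 0.18, edgeR adjusted p = 1.55e-14). The female change was smaller by 3.29 (SE 0.35, edgeR adjusted p of the difference = 6.96e-06), which is the sense in which the overexpression in females was moderate.

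Set per kilobase of exon, so that genes can be compared by level, *Sirt6* was the lowest of the 7 sirtuins in the WT group by its median, at 22.8 normalized counts per kb, and reached a median of 269 in the SIRT6-tg group. That level was close to *Sirt2* (271) and *Sirt3* (273) in the same mice, and their ranges overlapped that of *Sirt6* (148 to 457 per kb). The 6 other sirtuins had log2 fold changes between -0.01 for *Sirt5* and 0.15 for *Sirt2*, and none had an unadjusted p under 0.05. The neighbors of the endogenous gene were measured as well. Of 69 expressed genes within 1 Mb of *Sirt6*, 3 had an unadjusted p under 0.05, and the 39 with a mean normalized count of 100 or more had log2 fold changes between -0.27 and 0.33.

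Beyond *Sirt6* itself, 1 gene passed the edgeR test. The 2 calls made up 0.00933% of the 21432 genes. DESeq2, run on the same counts, called 38 of the 17691 genes to which it gave an adjusted p (0.215%), 20 higher and 18 lower in SIRT6-tg mice, and both edgeR calls were among them. For the 36 genes called by DESeq2 alone, the edgeR adjusted p lay between 0.214 and 0.67, so they are given below as DESeq2 calls. Without WT replicate 3, a mouse described below, DESeq2 called 18 genes, all among the 38. Calls lost then were those of *Fmo1*, *Impa1*, *Lipc*, *Nuf2*, *Relb*, *Chrm3*, *Dusp8*, *Igkv8-24*, *Lrtm2*, *Cib3*, *Gprc5b*, *Gm13775*, *Mup-ps16*, *Hmgb1-ps8*, and 6 others, at DESeq2 adjusted p between 0.0708 and 0.347. At an unadjusted edgeR p under 0.05 there were 1116 genes (5.21%), 519 higher (2.42%) and 597 lower (2.79%). Among the 9910 genes with a mean normalized count of 100 or more there were 442 (4.46%), of which 282 were higher (2.85%) and 160 lower (1.61%). The median log2 fold change of all genes was 0.01. In males, with the same number of mice, edgeR called 3578 of 21579 genes (16.6%), 990 higher (4.59%) and 2588 lower (12%).

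**Figure D1:**
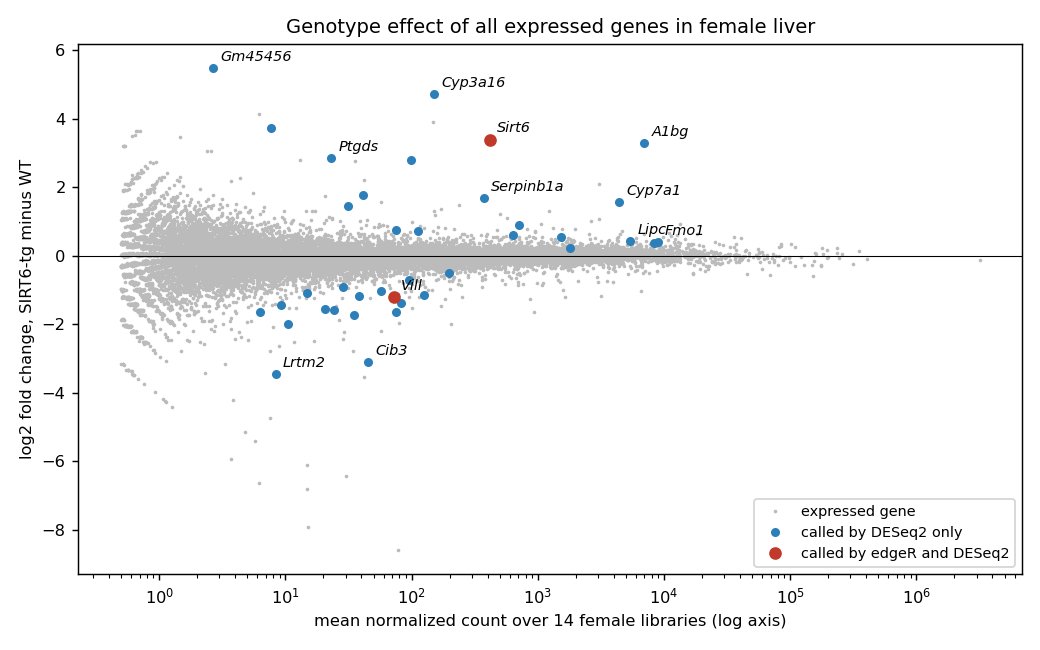
Each point is 1 of the 21432 genes expressed in female liver. The horizontal axis is the mean normalized count over the 14 female libraries (log axis) and the vertical axis is the fitted log2 fold change, SIRT6-tg minus WT. Red points are the 2 genes called by edgeR and DESeq2 and blue points the 36 called by DESeq2 alone. Most genes lie near 0, and the spread is widest among genes with few reads.

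The second gene called by edgeR was *Vill* (chromosome 9, 119052778 to 119071525, plus strand), which encodes villin-like protein, a relative of the actin-binding proteins villin and gelsolin. Its normalized counts were 74.1, 105, and 144 (lowest, median, and highest) in WT females and 32.2, 46, and 52.9 in SIRT6-tg females. Every SIRT6-tg mouse lay below every WT mouse. *Vill* fell by 1.21 on the log2 scale (SE 0.17, edgeR adjusted p = 0.0147; DESeq2 adjusted p = 1.88e-07). With single libraries left out the log2 change ranged from -1.28 to -1.10, and the call was lost without WT replicate 2 (adjusted p = 0.0521), WT replicate 5 (0.0517), SIRT6-tg replicate 3 (0.0719), or SIRT6-tg replicate 4 (0.0542). Male mice, which share no sample with the females, gave a change of -1.02 (SE 0.20, edgeR adjusted p = 0.00135), and the difference between the sexes was -0.28 (edgeR adjusted p = 0.615).

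Within the 7 SIRT6-tg females the level of *Vill* was not seen to follow the level of *Sirt6*. Over these 7 mice Pearson's r between log2 levels was 0.00599 (exact permutation p = 0.989) and Spearman's rho was 0.179 (exact permutation p = 0.713). Without the 2 mice farthest from the median *Sirt6* level, r was 0.141 over 5 mice. This was the only such relation tested, and 7 mice can show only a strong one.

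The change at *Vill* was not shared by the genes around it. *Plcd1*, which lies 0.002 kb from *Vill*, had a log2 fold change of -0.04 (SE 0.24). The 14 genes within 1 Mb with a mean normalized count of 100 or more had log2 fold changes between -0.09 and 0.40, and the value of 0.40 belonged to *Acaa1b*, a peroxisomal thiolase of fatty acid oxidation. Of the 35 expressed genes in that window 3 had an unadjusted p under 0.05, *Acaa1b* among them. Of the 8 expressed villin and gelsolin family genes, 2 had an unadjusted p under 0.05, both lower. They were *Vill* and *Capg*, a capping protein abundant in macrophages, whose log2 fold change was -0.54 (SE 0.22, edgeR adjusted p = 0.862).

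**Figure D2:**
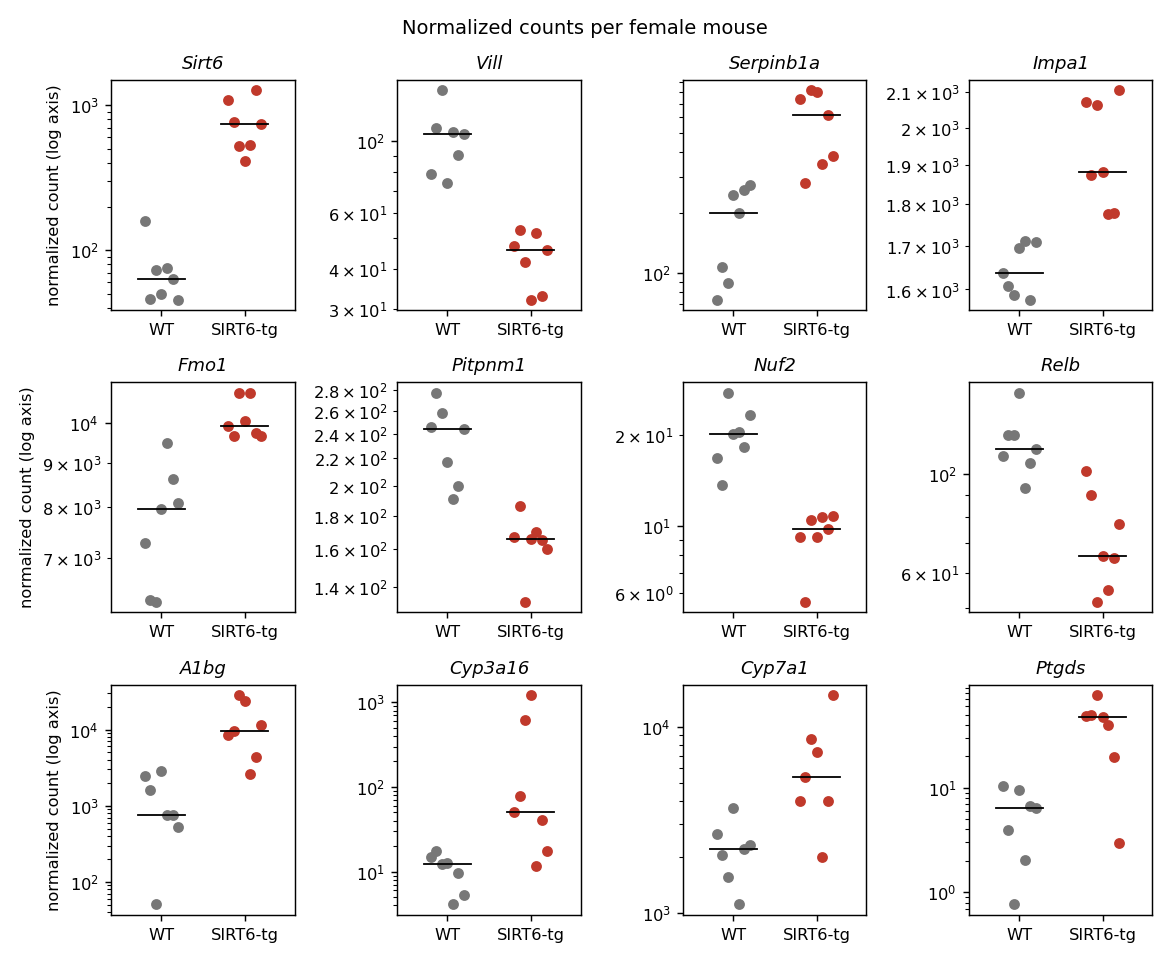
Normalized counts of 12 genes in each of the 7 WT (gray) and 7 SIRT6-tg (red) females, on log axes. Each point is 1 mouse and the line is the group median. The groups do not overlap for Sirt6, Vill, Serpinb1a, Impa1, Fmo1, Pitpnm1, and Nuf2, and they overlap for Relb, A1bg, Cyp3a16, Cyp7a1, and Ptgds.

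For 18 of the 21432 genes (0.084%) the 7 and 7 values did not overlap, 9 higher (0.042%) and 9 lower (0.042%) in SIRT6-tg mice. *Sirt6* and *Vill* were 2 of these. Among the higher genes also called by DESeq2 were *Serpinb1a*, *Fmo1*, and *Impa1*. *Serpinb1a*, an inhibitor of neutrophil proteases, had 73.7, 199, and 276 normalized counts in WT mice and 281, 617, and 819 in SIRT6-tg mice, a log2 change of 1.68 (SE 0.34, DESeq2 adjusted p = 8.57e-04). It was the only 1 of the 10 expressed clade B serpins with an unadjusted p under 0.05.

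*Fmo1*, a flavin monooxygenase of drug metabolism, had 6230, 7973, and 9476 normalized counts in WT mice and 9646, 9905, and 10826 in SIRT6-tg mice, a log2 change of 0.39 (SE 0.10, DESeq2 adjusted p = 0.0438). The SIRT6-tg values were tightly grouped just above the highest WT mouse. *Impa1*, the enzyme that frees inositol from its phosphate, had 1578, 1636, and 1711 counts against 1775, 1881, and 2106, a log2 change of 0.24 (SE 0.08, DESeq2 adjusted p = 0.0436). *Gstz1*, an enzyme of tyrosine breakdown, and *Zfp51*, a zinc finger gene, were higher without overlap but were not called by either tool. *Gm45456* and *Gm45437* were higher without overlap too, both near 0.

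On the lower side without overlap, *Pitpnm1*, a phosphatidylinositol transfer protein, had 191, 244, and 277 normalized counts in WT mice and 133, 166, and 186 in SIRT6-tg mice, a log2 change of -0.51 (SE 0.11, DESeq2 adjusted p = 0.00695). *Nuf2*, a kinetochore protein needed for chromosome segregation, had 13.7, 20.1, and 27.6 counts against 5.61, 9.78, and 10.8, a log2 change of -1.10 (SE 0.22, DESeq2 adjusted p = 0.0252). In males their log2 changes were -0.92 and -2.72 (edgeR adjusted p = 4.55e-05 and 9.75e-05). *Adam15*, a membrane metalloprotease, had a log2 fold change of -0.50 and was called by neither tool in females. *Ccdc114*, *Hmgb1-ps8*, *Hsf5*, *Igkv4-57-1*, and *Gm38235* completed the set, with medians of at most 13.8 normalized counts in either group.

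The other genes that DESeq2 called higher had groups that overlapped. *Cyp7a1*, the rate-limiting enzyme of bile acid synthesis, had 1117, 2201, and 3679 normalized counts in WT females and 1993, 5383, and 14751 in SIRT6-tg females. The lowest SIRT6-tg mouse lay within the WT range, the other 6 exceeded it, and 1 of them stood far above the rest. The log2 change was 1.57 (SE 0.37, DESeq2 adjusted p = 0.00859), against 0.07 (SE 0.36) in males, and the difference between the sexes had an edgeR adjusted p of 0.14. *Lipc*, the hepatic lipase, had a log2 change of 0.42 (SE 0.10, DESeq2 adjusted p = 0.0307) and rose in males by 0.46 (edgeR adjusted p = 5.57e-04). *S1pr1*, a receptor for sphingosine 1-phosphate found on endothelium and lymphocytes, had a change of 0.54 (SE 0.11, DESeq2 adjusted p = 0.00531). *Dpys*, which breaks down pyrimidines, changed by 0.36 (SE 0.09, DESeq2 adjusted p = 0.0224).

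*Ptgds*, which makes prostaglandin D2 and carries lipids outside the cell, had 0.767, 6.36, and 10.5 normalized counts in WT mice and 2.94, 46.9, and 76.7 in SIRT6-tg mice. Only 1 SIRT6-tg mouse, at 2.94, had a count within the WT range, and the other 6 exceeded it. Its log2 change was 2.85 (SE 0.53, DESeq2 adjusted p = 4.68e-04). *Htra4*, a secreted serine protease, had 11.5, 13.8, and 31.8 counts against 25.3, 41.2, and 64.8, a change of 1.45 (SE 0.26, DESeq2 adjusted p = 5.31e-04), and had the lowest edgeR adjusted p (0.214) of the genes that did not pass. *Serpine2*, an inhibitor of thrombin and other serine proteases, changed by 0.76 (SE 0.16, DESeq2 adjusted p = 0.00695).

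The genes that DESeq2 called lower were expressed at a low level, with WT medians from 5.76 normalized counts (*Lrtm2*) to 244 (*Pitpnm1*). *Relb*, a subunit of the alternative NF-kB pathway, had 93.3, 114, and 153 counts in WT females and 51.5, 65.3, and 102 in SIRT6-tg females, and 1 SIRT6-tg mouse lay within the WT range. Its change was -0.70 (SE 0.16, DESeq2 adjusted p = 0.0224), and it fell in males by 1.56 (edgeR adjusted p = 2.69e-05). *Ptpn7*, a phosphatase of blood cells, changed by -0.90 on the log2 scale, and the immunoglobulin segment *Igkv8-24* had medians of 15.9 in WT and 4.6 in SIRT6-tg mice. *Ttc39a*, a tetratricopeptide protein gene, changed by -1.73, and *Chrm3*, a muscarinic acetylcholine receptor, by -1.17. *Dusp8*, a phosphatase that acts on stress kinases, changed by -1.54, and *Mthfd1l*, an enzyme of mitochondrial folate metabolism, by -1.64. For *Lrtm2*, *Cib3*, *Gprc5b*, and *Mthfd1l* a few WT mice carried much of the difference. *Cib3*, for instance, ranged from 4.24 to 274 counts in WT mice and from 5.61 to 13.7 in SIRT6-tg mice.

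Several of the 38 genes have a near copy in the genome or lie over another gene, and their counts are uncertain. *Gm45456*, a pseudogene at 0 counts in all 7 WT mice and at 1.05 to 9.2 in SIRT6-tg mice, is 97.9% identical over 243 bases to *Abracl*. *Hmgb1-ps8* is 95.5% identical to *Hmgb1*. *Gm13775* and *Mup-ps16* overlap on the same strand, and *Htra4* lies opposite *Gm16933*. The strand setting of the counting is not stated, so reads of such pairs cannot be told apart. *Cyp3a16* is 81.9% identical to *Cyp3a44* and 78.5% to *Cyp3a41a*.

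Among genes known to be higher in female than in male liver, a group measured with a list of 26 expressed genes, 10 were higher in SIRT6-tg females at an unadjusted p under 0.05 and 0 were lower, against 2.42% and 2.79% of all genes. Their median log2 fold change was 0.42, and it ranged from 0.32 to 0.51 with single libraries left out. No member passed edgeR's adjusted test, and DESeq2 called 2 of them, *A1bg* and *Cyp3a16*. *A1bg*, a plasma glycoprotein of the immunoglobulin family, had 50.6, 756, and 2899 normalized counts in WT females and 2644, 9543, and 28307 in SIRT6-tg females. The 2 groups overlapped only through the lowest SIRT6-tg and the highest WT mice. The log2 change was 3.30 (SE 0.75, DESeq2 adjusted p = 0.00434), and in males it was 2.19 (SE 0.80, edgeR adjusted p = 0.07). *Cyp3a16*, a cytochrome P450 of steroid and drug metabolism, had 4.1, 12.3, and 17.6 counts against 11.7, 50.6, and 1215, a change of 4.73 (SE 1.11, DESeq2 adjusted p = 5.90e-04).

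The spread among SIRT6-tg mice was wide in this group. SIRT6-tg replicates 3 and 4 had the highest counts of both genes (28307 and 23650 for *A1bg*, 623 and 1215 for *Cyp3a16*), and replicate 5 the lowest (2644 and 11.7). Their *Sirt6* counts were 528, 413, and 531, the 3 lowest of the 7. Related genes did not all share this direction. *Cyp3a44* had medians of 480 in WT and 1756 in SIRT6-tg mice, and *Cyp3a41a* of 3.18 and 62.3. Their log2 fold changes of 1.31 (SE 0.47) and 3.92 (SE 1.12) did not pass the adjusted test. The more abundant *Cyp3a11* and *Cyp3a13* had log2 fold changes of -0.13 (SE 0.13) and -0.23 (SE 0.15), which did not pass either.

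WT replicate 3 stood apart on these genes, with the lowest *A1bg* count of all 14 mice (50.6) and the lowest mean log2 level of the female-biased list (3.65, against up to 5.59 in other WT mice). Without it, 9 of the 26 genes had an unadjusted p under 0.05, all higher, and the median was 0.32. The log2 change of *A1bg* was then 3.09. In WT replicate 3 the male-biased list was the highest of the 7 WT mice by the same measure (3.53, lowest 2.35). Y-linked *Eif2s3y*, *Kdm5d*, and *Uty* did not reach the expression filter in these 14 libraries, and Y-linked *Ddx3y* had a median of 0 in both groups and at most 2.12 counts in WT and 5.52 in SIRT6-tg mice. Of 29 expressed male-biased genes, 5 were higher and 5 lower at an unadjusted p under 0.05 with all libraries, and 5 and 0 without WT replicate 3. *Elovl3*, a fatty acid elongase, was among the higher (log2 fold change 1.58), and *Cyp4a12a*, an androgen-dependent P450, among the lower (-3.53), with 439 counts in its highest WT mouse and a median of 10.6. Without WT replicate 3 the log2 fold change of *Cyp4a12a* was -1.21 and no longer had an unadjusted p under 0.05.

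The 250 bases before the RefSeq start site of *Vill*, *A1bg*, and *Cyp3a16* (GRCm38.p6) are printed because *Vill* was the gene called beside *Sirt6* and the other 2 led the female-biased group. Capitals mark matches to TTCNNNGAA, the STAT5 motif, or ATTGAT, a core of the HNF6 motif, searched on both strands.
Vill: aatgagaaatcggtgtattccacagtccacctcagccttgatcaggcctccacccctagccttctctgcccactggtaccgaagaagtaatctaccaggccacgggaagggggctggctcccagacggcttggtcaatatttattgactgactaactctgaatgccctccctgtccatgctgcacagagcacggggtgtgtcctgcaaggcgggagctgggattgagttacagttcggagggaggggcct
A1bg: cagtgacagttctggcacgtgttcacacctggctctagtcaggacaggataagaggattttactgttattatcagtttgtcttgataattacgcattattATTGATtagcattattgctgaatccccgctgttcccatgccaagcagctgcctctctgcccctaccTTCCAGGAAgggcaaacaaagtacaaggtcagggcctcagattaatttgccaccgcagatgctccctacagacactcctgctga
Cyp3a16: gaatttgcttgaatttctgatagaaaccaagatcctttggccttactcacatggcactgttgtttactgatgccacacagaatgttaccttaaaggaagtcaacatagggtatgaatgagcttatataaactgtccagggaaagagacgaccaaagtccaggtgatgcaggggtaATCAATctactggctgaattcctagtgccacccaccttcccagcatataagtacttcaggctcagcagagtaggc
The first lies at chr9:119052528-119052777 (plus strand), the second at chr15:60921271-60921520 (minus), and the third at chr5:145469724-145469973 (minus). The *A1bg* stretch held 1 STAT5 match beginning 84 bases and 1 HNF6 match beginning 150 bases before the start. The *Cyp3a16* stretch held 1 HNF6 match at 75 bases, and *Vill* had no match to either. Of 32851 promoter stretches of this length, 7.02% held the STAT5 motif and 6.72% the HNF6 motif. The data hold no measurement of binding, and a match is no evidence of a site in use.

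Genes of the growth hormone axis, which sets the sex bias of the liver, showed 5 of 21 expressed members higher and 0 lower at an unadjusted p under 0.05, with a median of 0.12 (3 and 0 without WT replicate 3). They included *Igf1*, the hormone that growth hormone induces in liver, with 11041, 14884, and 17660 normalized counts in WT and 17056, 18557, and 22119 in SIRT6-tg females. The lowest SIRT6-tg mouse lay just inside the WT range. Its log2 fold change was 0.35 (SE 0.11, edgeR adjusted p = 0.657). *Igfals*, which carries IGF1 in blood, had a log2 fold change of 0.51 (SE 0.14) and *Prlr*, the prolactin receptor, of 0.47 (SE 0.15), and neither passed. In males *Igf1* and *Igfals* passed with log2 changes of 0.24 and 0.49.

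Metabolic lists differed in direction, and their medians were small. For every list given here, the shares of all genes at an unadjusted p under 0.05 were 2.42% higher and 2.79% lower. In males edgeR's adjusted test called 4.59% of all genes higher and 12% lower. Of 24 fatty acid oxidation genes, 23 had a positive log2 fold change, with a median of 0.16, and 7 were higher and 0 lower at an unadjusted p under 0.05 (4 and 0 without WT replicate 3, 1 and 1 in the 9 libraries above 0 on the first principal component described below). The 7 included *Hadh* and *Hadhb* of the mitochondrial beta-oxidation cycle, at 0.28 and 0.32, and *Cpt2*, which loads acyl groups inside the mitochondrion, at 0.29. *Cpt2* had 3189, 3542, and 4426 normalized counts in WT and 3687, 4324, and 5119 in SIRT6-tg females, ranges that overlapped. In males 18 of the 24 passed edgeR's adjusted test, all higher, with a median of 0.37. Of 18 PPAR-alpha targets, which encode enzymes of fat use, 5 were higher and 0 lower (2 and 0 without WT replicate 3, 0 and 1 in those 9 libraries), with a median of 0.11 that was 0.02 in the 9 libraries.

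Of 19 expressed genes of bile acid synthesis and transport, 6 were higher and 0 lower at an unadjusted p under 0.05, with a median of 0.17. Beside *Cyp7a1* they included *Cyp7b1*, of the alternative pathway, with a log2 fold change of 0.59 (SE 0.16, edgeR adjusted p = 0.52). *Slc10a1*, the main bile acid uptake carrier, had 16740, 18238, and 21956 counts in WT and 20037, 22314, and 24781 in SIRT6-tg females, a change of 0.29 (SE 0.09, edgeR adjusted p = 0.657). Its change in males was 0.76, and the sexes differed (edgeR adjusted p of the difference = 0.00832). Of 34 cytochromes P450 of families 1 to 3 and their regulators, 11 were higher and 2 lower, with a median of 0.10.

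The lists of the TCA cycle, the respiratory chain, cholesterol synthesis, the circadian clock, DNA repair, ribosomal proteins, and the proteasome had 0 members with an unadjusted p under 0.05. Their medians lay between -0.12 and 0.07. Gluconeogenesis had 2 higher and 0 lower of 19 with a median of -0.08, glycolysis 0 and 1 of 23 with a median of -0.08, and lipogenesis 1 and 0 of 22 with a median of -0.05. NAD synthesis had 2 and 1 of 18 with a median of -0.01, and amino acid catabolism 3 and 0 of 40 with a median of 0.03. *Pck1* and *G6pc* catalyze an early and the last step of gluconeogenesis. Their log2 fold changes were -0.39 and -0.29 in females, and neither had an unadjusted p under 0.05. Of the 16 liver genes that the study names, 2 had an unadjusted p under 0.05, *Acaa1b* at 0.40 and *Ido2*, an enzyme of tryptophan breakdown, at 0.27, and none passed an adjusted test.

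**Figure D3:**
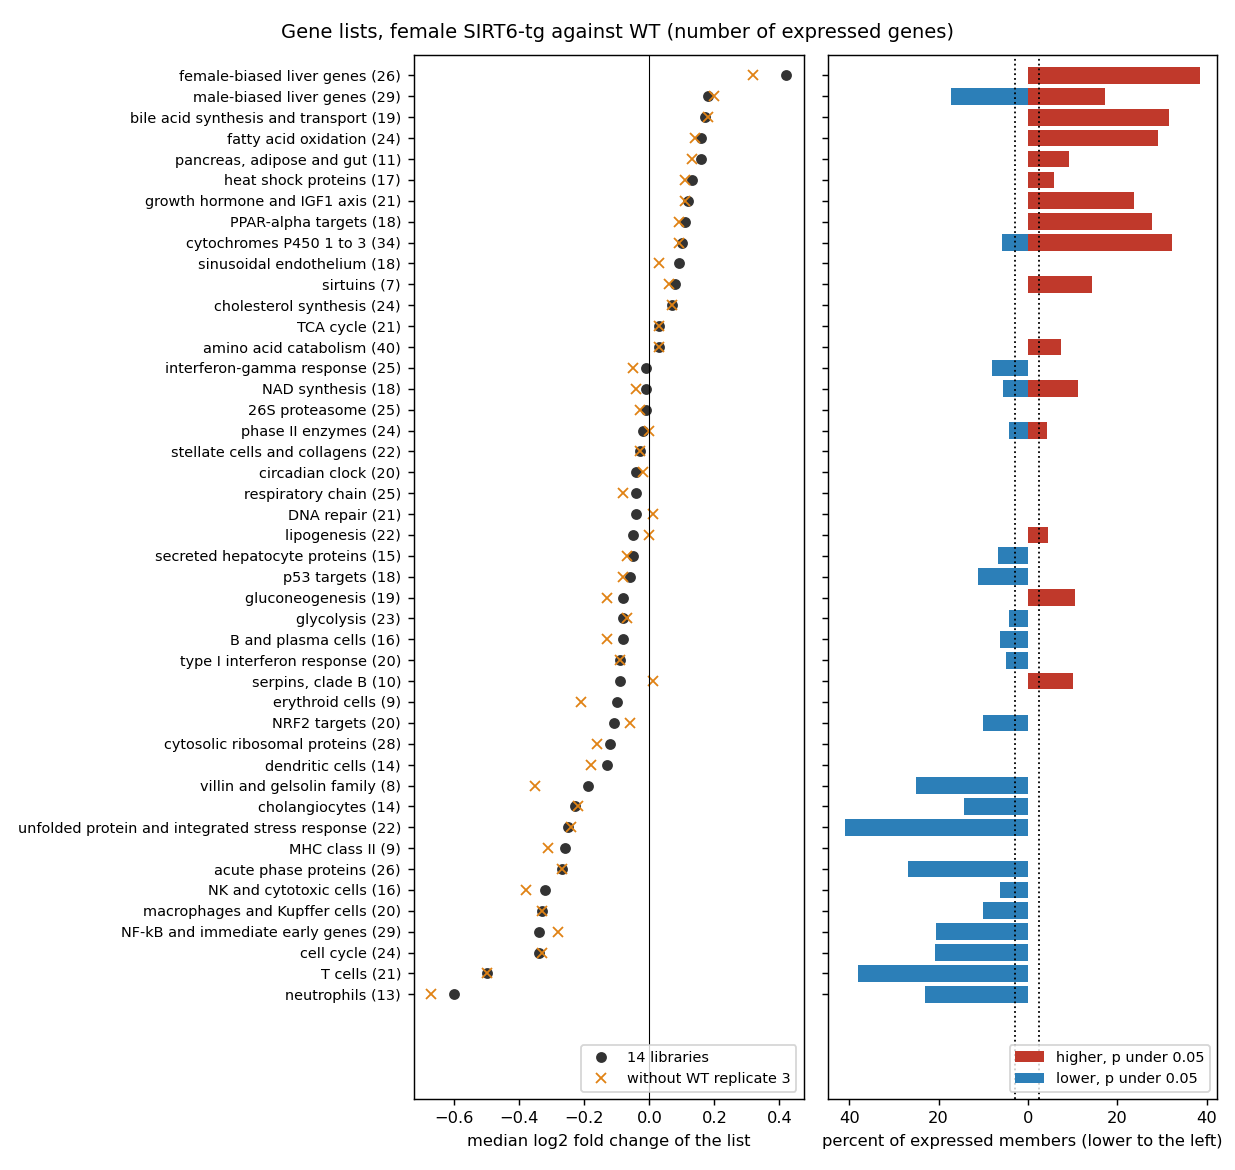
Left, the median log2 fold change (SIRT6-tg minus WT) of each gene list over the 14 female libraries (black) and without WT replicate 3 (orange). Right, the percent of expressed members with an unadjusted edgeR p under 0.05, higher in red to the right and lower in blue to the left, with dotted lines at the 2.42% and 2.79% of all genes. The number of expressed genes is in parentheses. A check list of sex chromosome genes, of which 2 were expressed, is not drawn. Among the lists drawn, the female-biased list has the highest median and the neutrophil list the lowest.

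Several lists of immune cells and inflammation and the list of stress responses had negative medians. All 22 genes of the unfolded protein and integrated stress responses, which restore protein folding in the endoplasmic reticulum and adjust amino acid supply, had negative log2 fold changes. Their median was -0.25, and 0 were higher and 9 lower at an unadjusted p under 0.05. *Hspa5*, the main chaperone of that compartment, had 12252, 17042, and 28152 normalized counts in WT and 11803, 13865, and 16744 in SIRT6-tg females. The upper WT mice lay above all SIRT6-tg mice while the lower ends met. Its log2 fold change was -0.50 (SE 0.17, edgeR adjusted p = 0.701), against 0.58 in males, and the sexes differed (edgeR adjusted p of the difference = 0.0145). *Manf*, a secreted folding-stress protein, had -0.71 and 0.52 (edgeR adjusted p of the difference = 0.0475). In males the list's median was 0.25, with 4 members called higher and 2 lower. Heat shock proteins, the chaperones outside that compartment for the most part, had 14 of 17 positive fold changes in females, with a median of 0.13 and 1 higher and 0 lower.

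T cell markers gave 0 higher and 8 lower of 21 at an unadjusted p under 0.05, against 2.42% and 2.79% of all genes. All 21 fold changes were negative, with a median of -0.50 on the log2 scale. The 9 libraries above 0 on the first principal component gave 1 higher and 3 lower, with a median of -0.38. *Cd8a*, of cytotoxic T cells, had 15.4, 50, and 74.4 normalized counts in WT and 16.8, 25.4, and 40.3 in SIRT6-tg females, so that the groups overlapped widely. In bulk liver RNA, fewer cells of a type and less RNA per cell cannot be told apart. The summed T cell markers ranged from 560 to 1550 counts in WT and from 712 to 1270 in SIRT6-tg mice. In males 20 of the 21 were called lower, against 12% of all genes, with a median of -2.26. The difference between the sexes at *Cd8a* was 2.74 (edgeR adjusted p = 2.87e-04), the female change being the smaller.

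Macrophage and Kupffer cell markers gave 0 higher and 2 lower of 20, again all negative, with a median of -0.33, and their summed level ranged from 17108 to 32331 counts in WT and from 13561 to 30967 in SIRT6-tg mice. *Marco*, a scavenger receptor of Kupffer cells, had a log2 fold change of -0.85. Neutrophil markers gave 0 and 3 of 13, with a median of -0.60 that became -0.07 when only the 9 libraries above 0 on the first principal component were kept. The neutrophil marker *Ly6g* was not expressed. NF-kB and immediate early genes gave 0 and 6 of 29, with a median of -0.34, *Relb* and *Nfkb2* having the lowest p. Cell cycle genes gave 0 and 5 of 24, with a median of -0.34, among them *Birc5* of the mitotic spindle, at -0.75. Acute phase proteins gave 0 and 7 of 26, with a median of -0.27. Without WT replicate 3 they gave 0 and 2, with the median still at -0.27, and in the 9 libraries the median was -0.03. Interferon-gamma response genes gave 0 and 2 of 25, with a median of -0.01, type I interferon response genes 0 and 1 of 20, with a median of -0.09, and B and plasma cell markers 0 and 1 of 16, with a median of -0.08. MHC class II, dendritic, erythroid, sinusoidal, and stellate lists gave 0 in both directions.

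The male libraries gave a second look at the genes DESeq2 called in females, and the 2 comparisons share no sample. They do share the transgenic line. Male WT libraries also carried lower library numbers (1 to 7) than male SIRT6-tg libraries (17 to 24). Library order and insertion site therefore cannot be told apart from genotype in males either. Of 37 such genes other than *Sirt6*, 36 had the same sign in males, 22 were called by edgeR in males in the same direction (59.5%), and 0 in the opposite direction. Of all 20618 genes tested in both sexes, 56.3% had the same sign, 12.9% were called in males in the direction they had in females, and 4.27% in the opposite direction. Of the 1053 genes with an unadjusted p under 0.05 in females and tested in both sexes, 364 (34.6%) were called in males in the same direction and 11 (1.04%) in the opposite one. *Cyp7a1*, described above, was called by DESeq2 in females and had a value near 0 in males. Over all genes 1089 of 21583 differed between the sexes in the genotype effect (5.05%), 829 of them with the more positive change in females, and with library size alone as scaling 1863 did, 1837 of them more positive in females.

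**Figure D4:**
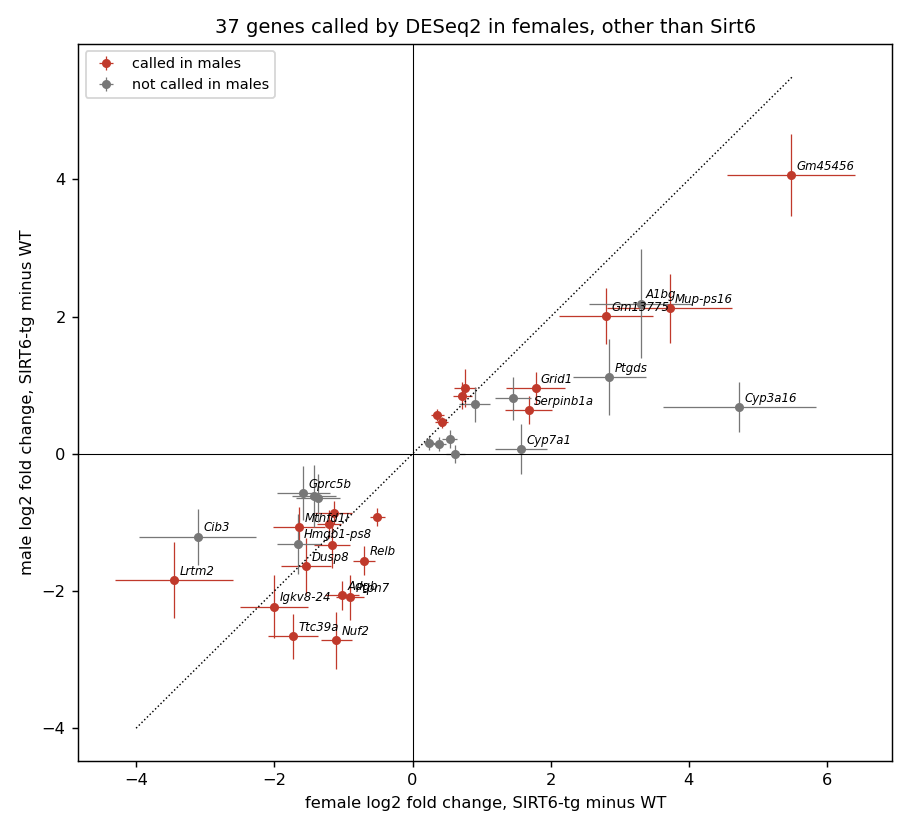
The 37 genes other than Sirt6 that DESeq2 called in females, by the female log2 fold change (horizontal axis) and the male log2 fold change (vertical axis), SIRT6-tg minus WT, both from edgeR. Bars are standard errors, red points were called by edgeR in males (adjusted p under 0.05), the dotted line marks equal changes, and names are given to genes beyond 1.5 in either sex. Of the 37 points, 36 have the same sign in both sexes.

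Depth and library quality were measured on the same 14 libraries. Total counts were 23362116 to 32362750 in WT and 22893868 to 31198683 in SIRT6-tg mice. The common biological coefficient of variation was 0.235. On the first principal component of log2 counts, which held 26.8% of the variance, WT replicates 1, 2, and 4 and SIRT6-tg replicates 1 and 6 lay below 0 and the other 9 above it. Exon lengths were compared among the 9910 genes with a mean normalized count of 100 or more. The 500 of these highest in those 5 libraries had a median exon length of 1568 bases. It was 8932 for the 500 highest in the other 9 libraries and 4594 for all 9910 genes. Both groups held libraries of both kinds, and the genotypes differed by 10.1 on this component (exact permutation p = 0.62, adjusted over 4 components 0.827). They differed by 25 on the second (exact permutation p = 0.021, adjusted 0.0839), by -21.3 on the third (exact permutation p = 0.0425, adjusted 0.0851), and by -1.1 on the fourth (exact permutation p = 0.917). With the 9 libraries alone edgeR called 5 genes, *Sirt6*, *Vill*, *Mnt*, *Htra4*, and *Rassf3*. All WT libraries carried lower library numbers (33 to 40) than all SIRT6-tg libraries (49 to 56), so library order and genotype cannot be told apart.

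**Figure D5:**
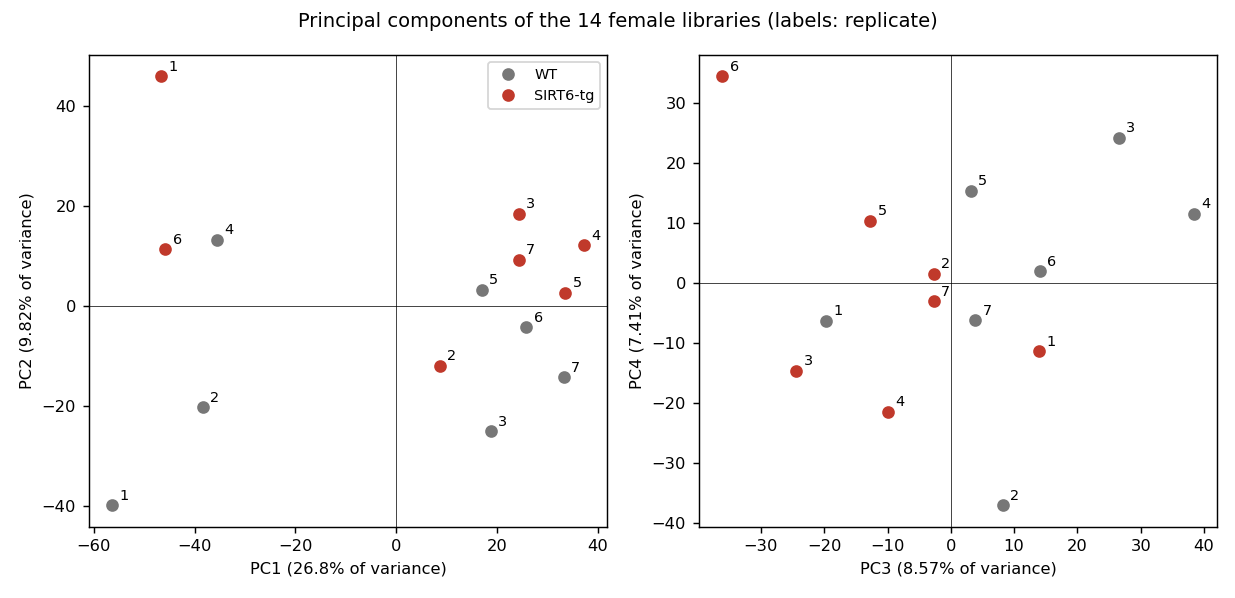
Scores of the 14 female libraries on the first 4 principal components of log2 CPM (counts scaled to the library total), with the percent of variance on each axis, WT in gray and SIRT6-tg in red, and the replicate number beside each point. The first component splits 5 libraries of both genotypes from the other 9, and neither genotype is separate on any of the 4.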

How the data were processed

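Liver RNA of 28 mice was analyzed as counts per gene, and only the 14 female libraries entered the main comparison. Reads were aligned by the authors to mm10 with STAR 2.5.0a and counted on Gencode genes with HTSeq-count, uniquely mapped reads only, and the deposited values are raw read counts without normalization. The strand setting of the counting is not given in the sources used here. All columns were matched to samples by name, and the number left unmapped was 0. Groups and replicate numbers came from the labels. The filter of the study was used, a mean of at least 0.5 counts scaled by DESeq2 size factors. Counts were scaled by TMM (factors 0.919 to 1.06) and compared by the quasi-likelihood method of edgeR 4.0.16 (robust, R 4.3.3), with genotype as the only term and Benjamini-Hochberg adjustment over all 21432 genes. DESeq2 1.42.0, the tool of the study, served as an alternative, and 3741 genes got no adjusted p from it. The male comparison and the difference between the sexes were fitted in the same way. Unadjusted p in the text is the p of the same edgeR test. The code was tested on simulated data. Libraries of a group differed by more than sampling noise (chi-square per gene at least 12.2), and p-values measure the spread between mice.

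Genes named were *Sirt6*, those called by either tool, and those whose 7 and 7 values did not overlap. Some of those the study names for liver RNA or protein were added, with the members of each of 46 gene lists with the lowest p. Paralogs and neighbors of called genes were named as well. Some genes that this rule names are not reported here. The comparison and the lists were chosen with earlier results of these data known. Symbols and positions came from Gencode vM21 (GRCm38) for 49326 of 49585 features, and promoter stretches from RefSeq. Principal components were computed on log2 CPM (prior count 2) of all 21432 expressed genes. Groups were compared on them by two-sided exact permutation tests (3432 splits of the mice). Exon lengths along the first component were compared among the 9910 genes with a mean of 100 or more. A count of 0 allows up to 3 counts at the 95% level, counting error only. Alternatives were RLE, upper-quartile, and library size scaling, other filters, DESeq2, the replicate number as a block, all 28 libraries in 1 fit, 2 surrogate variables (sva 3.50.0), and each library left out. Same-numbered WT and SIRT6-tg libraries were checked for pairing by the correlation of their deviations from the group means.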

Additional observations from a re-analysis of the deposited data

Results flagged for a closer look

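Values far from the rest of their group were looked for in 87 group-and-gene pairs. The measure was the gap of the highest or lowest mouse to its nearest neighbor as a share of the group's range. Gaps and ranges were taken on the log2 scale, whereas the counts and medians printed beside the shares are normalized counts. Chance alone gives about 1 in 20 groups such a value. In WT females the shares were 0.606 for *Sirt6* in replicate 1 (160 normalized counts, group median 63.4), 0.572 for *Dpys* in replicate 3 (5853, median 7670), and 0.573 for *A1bg* in replicate 3 (50.6, median 756). They were 0.575 for *Zc3h12d* in replicate 1, 0.654 for *Mup-ps16* in replicate 2, and 0.578 for *Hsf5* in replicate 5. In SIRT6-tg females they were 0.63 for *Dpys* and 0.735 for *Nuf2*, both the lowest value and both in replicate 2, 0.586 for *Adgb* in replicate 6, and 0.759 for *Zfp51* in replicate 1, whose count of 186 lay above a median of 137. Without WT replicate 1 the *Sirt6* change was 3.69 on the log2 scale.

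Of the 117 genes looked up, 24 had an effect of genotype that differed in females and males (edgeR adjusted p of the interaction under 0.05). Over all genes 1089 of 21583 did (5.05%). The 117 were picked in part by their female values, so the shares are not like for like. Each value is the female minus the male log2 fold change. Immune cell genes were less negative in females, with differences of 2.04 for *Cxcl10*, 2.74 for *Cd8a*, 1.61 for *Trac*, 1.33 for *Irf8*, 2.56 for *Itgax*, 2.94 for *Ccl5*, 2.97 for *Pdcd1*, 3.48 for *Tigit*, 1.73 for *Capg*, 0.99 for *Icam1*, and 2.45 for *Marco*. The replication genes *Mcm6*, *Top2a*, and *Aurkb* showed the same direction, at 0.94, 1.79, and 1.56. The fibrinogen genes *Fga*, *Fgg*, and *Fgb* differed by -0.65, -0.70, and -0.66, and the chaperone genes *Hspa5* and *Manf* by -1.16 and -1.32. *Slc10a1* differed by -0.56, *Cyp4a12a* by -3.87, and *Sirt6* itself by -3.29. The female change of *Cyp4a12a* behind this was -3.53 with all libraries and -1.21 without WT replicate 3. The low-count genes *Hsf5* and *Gm38235* differed by -5.08 and -3.83.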

How the results depend on the processing

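*Sirt6* kept its call and direction under all 25 alternatives, with log2 changes between 3.21 and 3.69. *Vill* kept its direction under all of them, and its call was lost under 4 of the 14 settings that left out 1 library. Its log2 change ranged from -1.28 to -1.10 over the 14, and was -1.19 without WT replicate 2, -1.20 without WT replicate 5, -1.21 without SIRT6-tg replicate 3, and -1.15 without SIRT6-tg replicate 4, and the cause was not tested. The number of called genes moved from 2 to 38 with DESeq2, 6 with all 28 libraries in 1 fit, and 21 with 2 surrogate variables, and ranged from 1 to 3 with each library left out. Fits added after seeing the data gave 5 with the 9 libraries above 0 on the first principal component and 18 with DESeq2 without WT replicate 3. All 18 were among the 38. The replicate number as a block gave 5 calls. These numbers were not taken to pair the samples, since only 3 of 7 same-numbered pairs had a correlation over 0.1 (range -0.29 to 0.28) and 1 WT library correlated best with its own number. The count of genes that differed between the sexes moved from 1089 to 1863 with library size alone, which also turned r between *Sirt6* and *Vill* to -0.131 (exact permutation p = 0.77). The genotypes differed on the second component by 13.9 with the 500 most variable genes (exact permutation, adjusted p = 0.0117) and on the third by 37.2 with a prior count of 0.5 (exact permutation, adjusted p = 0.0163). *Camp* had 0.77 in the 9 libraries, against -1.90 in all 14. Of the values for 117 genes, 2729 kept their side of the threshold and their direction, 53 passed it under an alternative only (37 genes), and 4 lost it. Genes with few reads in a group of 7 limit what this depth can show.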

Other observations

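The largest fitted decreases among genes that did not pass the edgeR test rested on 1 mouse each. Of 10 genes whose log2 fold change was beyond 5 in size and that did not pass the edgeR test, 9 were lower in SIRT6-tg mice, and these were picked after their values were seen. The skeletal muscle genes *Mb*, *Tnnt3*, *Myh2*, *Acta1*, *Ckmt2*, *Ckm*, and *Myh8* were all highest in WT replicate 2, which held 87.7% to 98.5% of their normalized counts over the 14 mice. *Acta1*, skeletal muscle actin, had 406 normalized counts there and at most 11.7 in any other mouse (log2 fold change -6.44, SE 2.02, edgeR adjusted p = 0.672). *Tnnt3*, a troponin of fast muscle, had 192 and at most 7.42. *Abca17* was at 1083 in WT replicate 6 and at most 1.22 elsewhere (log2 fold change -8.59, SE 2.61, edgeR adjusted p = 0.657). *Ccdc7a* was at 204 in WT replicate 1 and at most 1.05 elsewhere. *Gm45456* was the 1 higher gene, and its counts were spread over all 7 SIRT6-tg mice.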
